A study of Mus musculus with 10 samples.

Results

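The genes described here encode the nuclear subunits of the mitochondrial respiratory chain and of ATP synthase. They were chosen by name, as every array probe whose gene symbol marks a subunit of complexes I to V or cytochrome c, without regard to its value. That gave 122 probes of 80 genes among the 19057 genes named on the array. By complex the genes numbered 33 for complex I, 4 for complex II, 8 for complex III, 1 for the electron carrier cytochrome c, 17 for complex IV and 16 for complex V. The 1 further match was Ndufs5-ps, a transcribed pseudogene. It was placed in no complex but is included in the 80 genes and in every total over all measured genes. Ndufa4 carries a complex I name but is known to sit in complex IV and was placed there.

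Complex I (NADH dehydrogenase), complex III (the cytochrome bc1 complex) and complex IV (cytochrome c oxidase) pump protons across the inner mitochondrial membrane as electrons pass from NADH to oxygen, and complex II (succinate dehydrogenase) feeds in electrons from the citric acid cycle. Complex V (ATP synthase) lets the protons flow back and makes ATP. Several subunits of complex IV exist as a widespread form and as a form restricted to tissues such as heart, skeletal muscle, brown fat, lung or testis, and the ring of complex V that turns in the membrane is encoded by several genes with the same mature protein. Fat cells build up mitochondria as they differentiate, and macrophages shift between oxidative and glycolytic energy production with their state of activation.

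Messenger RNA was measured in 2 mouse cell lines, each grown alone (monolayer) or facing the other (bilayer), to ask how the lines communicate. 3T3-L1 cells are embryonic fibroblasts that were turned into fat-storing adipocytes with IBMX, dexamethasone and insulin and reseeded on day 8 of differentiation, and RAW 264.7 cells are a mouse macrophage line. In the bilayer, RAW 264.7 cells attached for 18 h to a polycarbonate insert with 0.4 µm pores, which was then set above the adipocytes for 24 h in fresh medium. There were 3 arrays of monolayer and 3 of bilayer adipocytes, and 2 arrays of monolayer and 2 of bilayer macrophages, each from a pool of 5 dishes and none with a gene altered. The labels give no insert or medium change for the monolayer dishes, so any effect of these is part of each bilayer difference, and each cell type is represented by a single line. The series record names biological replicates but no independent cultures, so the p-values reflect how far these samples spread, and that spread may be technical. In such bulk samples, fewer cells of a type and less RNA per cell cannot be told apart.

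The stretches before the start sites of 6 genes named in the results are shown. Cox7a1 rose in bilayer adipocytes, Cox7a2, Ndufb7, Sdhd and Atp5h fell there, and Cox8b separated the lines most. The calls of Cox7a2, Sdhd and Atp5h depended on single arrays, and other genes that fell, such as Ndufc2 and Ndufa4, are not shown. Each stretch is 250 bases, 5′ to 3′ on the strand of the gene, from RefSeq's promoter table (GRCm38.p6). Capitals mark matches to any of the motifs ACGTG (the core bound by hypoxia-inducible factors), GCGC, any base and TGCGC in a row (an NRF1-type motif) and CCGGAAG (an ETS-type motif), each searched on both strands, and none of the printed matches overlaps another. The intervals are chr7:30183921-30184170 (+) for Cox7a1, chr9:79759854-79760103 (−) for Cox7a2, chr8:83566508-83566757 (+) for Ndufb7, chr9:50603850-50604099 (−) for Sdhd, chr11:115419920-115420169 (−) for Atp5h and chr7:140900447-140900696 (−) for Cox8b.
Cox7a1: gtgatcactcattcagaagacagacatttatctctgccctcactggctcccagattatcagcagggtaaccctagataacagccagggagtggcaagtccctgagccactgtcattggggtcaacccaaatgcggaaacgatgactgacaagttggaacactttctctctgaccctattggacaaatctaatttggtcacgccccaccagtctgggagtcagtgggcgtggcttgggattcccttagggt
Cox7a2: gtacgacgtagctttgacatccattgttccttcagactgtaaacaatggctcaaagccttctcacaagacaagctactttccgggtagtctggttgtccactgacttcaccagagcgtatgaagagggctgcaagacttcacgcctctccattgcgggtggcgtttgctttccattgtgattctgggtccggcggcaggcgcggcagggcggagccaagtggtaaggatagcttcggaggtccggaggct
Ndufb7: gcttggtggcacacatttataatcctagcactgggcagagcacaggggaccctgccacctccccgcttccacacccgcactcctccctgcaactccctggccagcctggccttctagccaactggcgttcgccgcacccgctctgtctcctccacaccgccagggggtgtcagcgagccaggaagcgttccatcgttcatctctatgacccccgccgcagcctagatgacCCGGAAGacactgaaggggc
Sdhd: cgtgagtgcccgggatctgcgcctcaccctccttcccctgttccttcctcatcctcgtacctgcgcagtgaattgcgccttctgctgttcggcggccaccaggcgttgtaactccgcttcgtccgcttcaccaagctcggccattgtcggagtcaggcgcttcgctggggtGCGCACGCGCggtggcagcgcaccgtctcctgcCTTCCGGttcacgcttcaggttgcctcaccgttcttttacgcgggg
Atp5h: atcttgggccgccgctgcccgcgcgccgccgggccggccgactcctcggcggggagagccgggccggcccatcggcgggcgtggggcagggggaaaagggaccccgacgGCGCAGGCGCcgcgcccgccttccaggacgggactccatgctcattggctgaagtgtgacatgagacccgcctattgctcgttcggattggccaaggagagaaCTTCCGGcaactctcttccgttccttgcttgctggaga
Cox8b: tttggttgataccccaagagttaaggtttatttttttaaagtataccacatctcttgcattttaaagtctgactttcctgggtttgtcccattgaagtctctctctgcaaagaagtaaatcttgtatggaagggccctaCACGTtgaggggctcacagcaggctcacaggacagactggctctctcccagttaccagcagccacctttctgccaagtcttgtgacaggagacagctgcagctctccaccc

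Sdhd and Atp5h each held an NRF1-type and an ETS-type match, Ndufb7 an ETS-type match and Cox8b a hypoxia-inducible factor core, while these letters were not in the windows of Cox7a1 and Cox7a2. Of the 80 genes, 65 had an entry in the table. The NRF1-type motif was present in 12 of the 65 (18.5%), against 4.23% of all 27025 genes with an entry. The ETS-type motif was present in 12 (18.5%), against 7.83%, and the hypoxia-inducible factor core in 14 (21.5%), against 18.5%. The 27025 genes outnumber the 19057 named on the array, so they include genes not measured here. Shares over measured genes alone were not taken. A match describes the letters of a window and not a bound site.

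Intensities were the authors' background-subtracted and normalized values on a linear scale, and a noise bound of 10.9 units was set from the values below 0. Differences are given on the scale log2(intensity + 16), which understates the change of dim genes, and folds are taken from that scale. A gene counted as measured where its probe passed that bound on 2 or more arrays of the line (of all 10 arrays for comparisons between the lines), and 75 genes passed in adipocytes, 74 in macrophages and 75 between the lines. The 5 that passed nowhere were Cox6b2 and Cox7b2, isoforms known from testis, each above noise on 1 array, and Cox8c, Ndufs1 and Sdha, above it on 0 arrays. Ndufs1 and Sdha are core subunits of complexes I and II, and for them only a bound on the signal of that probe is known. Between 41.91% and 41.92% of probes exceeded the bound on each array, a near-equal share of normalized values that does not show the quality of an array. The correlation across probes was 0.988 to 0.991 between arrays of the same group. It was 0.986 to 0.99 between conditions of the same line and 0.838 to 0.844 between the lines. All 8 macrophage markers exceeded noise on every macrophage array and 0 did so on every adipocyte array (2 on any), where their summed intensity was 9 to 43 in monolayer and 15 to 38 in bilayer, against 64049 to 65082 in monolayer macrophages. All 9 adipocyte markers exceeded noise on every adipocyte array, with sums of 72668 to 77758 in monolayer and 67930 to 75546 in bilayer. In macrophages 3 of them exceeded noise on any monolayer array and 1 on any bilayer array, with sums of 4600 to 4618 and 3420 to 4047. Of 3 markers of dividing cells, Birc5 and Cdc20 fell in bilayer adipocytes, and the sum went from 1315 to 1551 in monolayer to 864 to 1002 in bilayer. Of the 9 adipocyte markers 1 fell, Car3 (-0.46, limma adjusted p = 0.00562), and 8 did not pass, with a median of -0.11. Of 7 fibroblast and preadipocyte markers 1 fell, Acta2 (-0.61, limma adjusted p = 0.000288), and 6 did not pass, with a median of 0.06. On every adipocyte array 6 of the 7 exceeded noise. Their sum went from 22147 to 23801 in monolayer to 20166 to 21132 in bilayer, without overlap. The part of these markers in the adipocyte results was not tested.

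In adipocytes facing macrophages, the muscle and brown fat form of a complex IV subunit, Cox7a1, rose 2.09-fold, and 8 genes of complexes I, II, IV and V fell by 0.21 to 0.47 on the log2 scale. The other 66 measured genes did not pass limma's test at an adjusted p of 0.05. Of all 11037 genes tested in adipocytes, 10.8% passed, 5.63% higher and 5.17% lower, so the total of 9 among 75 genes was near the background share. The median difference of the 75 genes was -0.07, against -0.01 for all genes tested, and 57 of them lay below 0 (76%), against 52.2% of all. Each of the 3 bilayer arrays was below each monolayer array for 21 of the 75 genes and above for 3, against 14.8% and 13.9% of all genes tested. An unadjusted p under 0.05 was reached by 22 of the 75 genes, against 24.7% of all.

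Cox7a1, the form of subunit 7a known from heart, skeletal muscle and brown fat, had intensities of 454, 414 and 610 on the monolayer adipocyte arrays and 1126, 990 and 990 on the bilayer arrays. The lowest bilayer array thus lay well above the highest monolayer array. The difference was 1.06 (SE 0.12, limma adjusted p = 8.54e-06). Its widespread counterpart Cox7a2 had 906, 714 and 687 in monolayer and 652, 538 and 605 in bilayer. Here every bilayer array was below every monolayer array, and the fall was 0.35 on the log2 scale (a difference of -0.35, SE 0.10, limma adjusted p = 0.0357). On each array the log2 ratio of the Cox7a1 probe over the Cox7a2 probe was -0.97, -0.76 and -0.17 in monolayer and 0.77, 0.86 and 0.70 in bilayer adipocytes. The ratio of 2 probes is not a ratio of molecules, so only its change is read, and it was 1.41 higher in bilayer (0.78 ± 0.08 against -0.63 ± 0.42, SD, n = 3 each). An exact two-sided permutation test gave p = 0.1, the smallest that 3 arrays against 3 allow, and 0.5 after Benjamini-Hochberg adjustment over the 5 pairs.

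**Figure D1:**
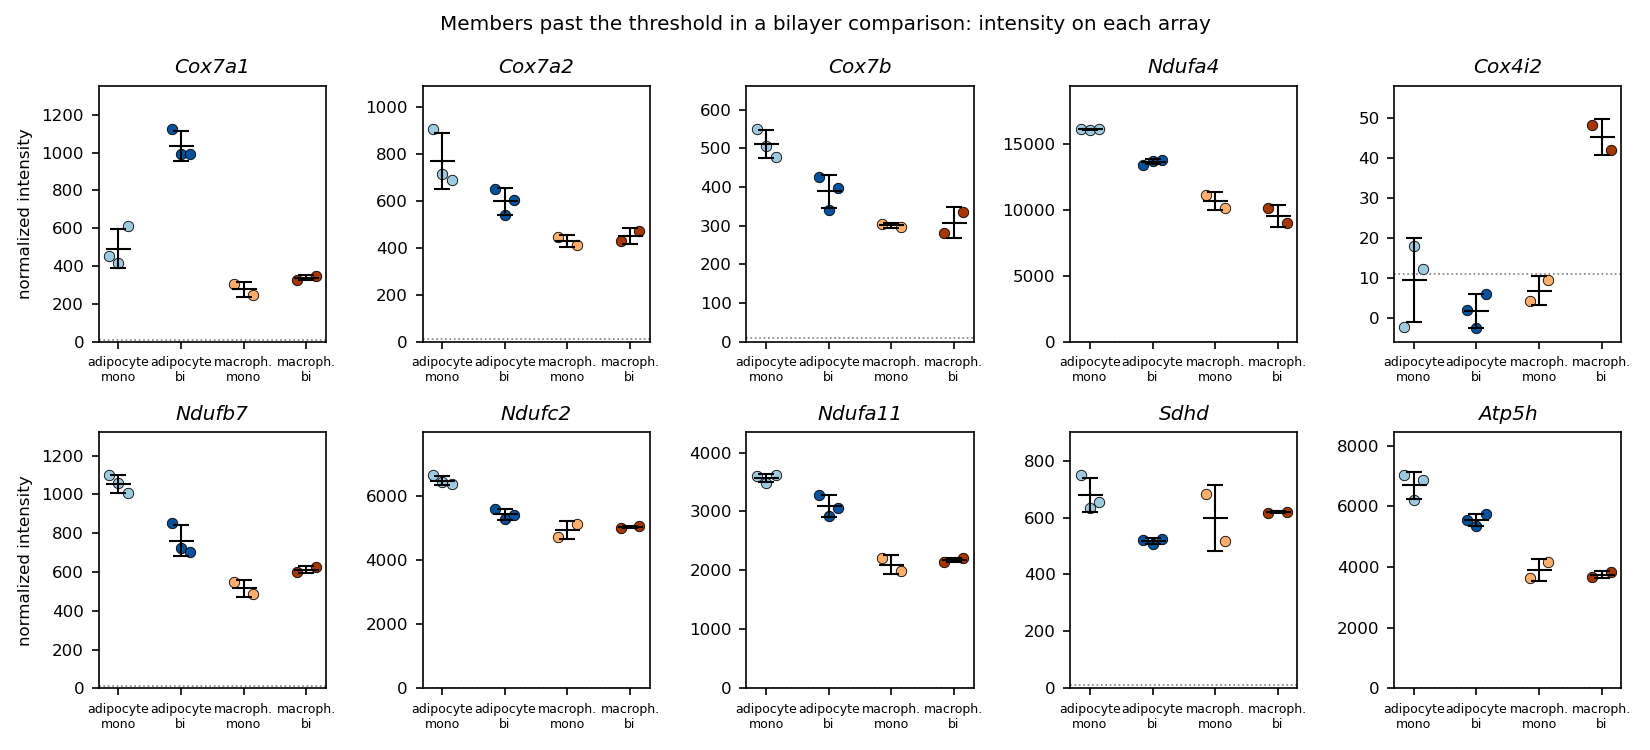
Normalized intensity (linear scale, 1 panel per gene) on each array of the 4 groups, with the group mean and SD as black bars and the noise bound of 10.9 as a dotted line. Cox7a1 separates the bilayer adipocytes upward, the 8 genes that fell sit lower there than in monolayer adipocytes without overlap, and Cox4i2 exceeds the bound on both bilayer macrophage arrays.

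Of the other complex IV genes, Cox7b, a small subunit encoded on the X chromosome, had intensities of 551, 506 and 479 in monolayer and 427, 341 and 398 in bilayer adipocytes. The groups did not overlap, and the difference was -0.39 (SE 0.10, limma adjusted p = 0.0185). Ndufa4 had 16109, 16061 and 16137 in monolayer and 13420, 13675 and 13775 in bilayer. These were tight groups far apart for their spread, with a difference of -0.24 (SE 0.06, limma adjusted p = 0.0147). The lung form Cox4i2, known elsewhere to respond to low oxygen, gave -2.17, 18.1 and 12.3 in monolayer and 1.94, -2.52 and 5.88 in bilayer adipocytes, so it was at noise on all but 2 arrays. Of the 14 measured complex IV genes, 1 rose, 3 fell and 10 did not pass. The restricted forms Cox6a2 and Cox8b, of muscle and brown fat, were 0.27 and 0.27 higher in bilayer and did not pass (limma adjusted p = 0.20 for each).

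In complex I, 3 of the 32 measured genes fell and 0 rose. All 3 encode accessory subunits, which surround the core that carries the electrons, as do 27 of the 32 measured genes. Ndufb7 had intensities of 1099, 1061 and 1006 in monolayer and 851, 724 and 704 in bilayer adipocytes. The highest bilayer array stayed below the lowest monolayer array, and the difference was -0.47 (SE 0.08, limma adjusted p = 0.00114). Ndufc2 had 6664, 6447 and 6375 in monolayer and 5620, 5293 and 5410 in bilayer, a difference of -0.26 (SE 0.06, limma adjusted p = 0.00733). Its second, dimmer probe differed by -0.33, without passing when every probe was tested (limma adjusted p = 0.187). Ndufa11, a subunit of the membrane arm, had 3606, 3488 and 3617 in monolayer and 3286, 2920 and 3059 in bilayer, a difference of -0.21 (SE 0.06, limma adjusted p = 0.0437). The 5 measured core genes differed by between -0.13 and 0.07 and none passed. The largest value above 0 in the complex was 0.16, for Ndufa6, another accessory subunit, which did not pass (limma adjusted p = 0.111). Ndufs6, an accessory subunit, differed by -0.17 without passing (limma adjusted p = 0.103), and a second, dimmer Ndufs6 probe was lower by test when every probe was fitted (-0.28, limma adjusted p = 0.0283).

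In complex II, Sdhd, which anchors the enzyme in the membrane, had intensities of 749, 634 and 655 in monolayer and 520, 506 and 526 in bilayer adipocytes. The groups did not overlap, and the difference was -0.38 (SE 0.09, limma adjusted p = 0.0151). Sdhb, the iron-sulfur subunit, differed by 0.06 (SE 0.06, limma adjusted p = 0.59), and Sdhc, the other anchor, by -0.01. In complex III 0 of 8 genes passed limma's test, and before adjustment 1 was under 0.05. Its smallest p values belonged to Cyc1, the cytochrome c1 gene, at -0.17 (SE 0.08, limma adjusted p = 0.187), and to the accessory subunit gene Uqcrq at 0.19 (SE 0.14, limma adjusted p = 0.421). Cycs, cytochrome c itself, had 7357, 7696 and 7064 in monolayer and 6533, 6388 and 6450 in bilayer, and did not pass at -0.19 (SE 0.06, limma adjusted p = 0.0528).

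In complex V all 16 genes were measured, and by the brightest probe of each all 16 differences lay below 0, from -0.27 to -0.003. Of all genes tested in adipocytes, 52.2% lay below 0 and 5.17% passed as lower. In this complex 1 gene passed. That was Atp5h, subunit d of the peripheral stalk, with intensities of 7031, 6198 and 6877 in monolayer and 5559, 5338 and 5740 in bilayer adipocytes. The groups did not overlap, and the difference was -0.27 (SE 0.07, limma adjusted p = 0.0137). Next by p came Atp5l, subunit g of the membrane sector, at -0.15 (SE 0.07, limma adjusted p = 0.157), whose second measured probe differed by 0.09 the other way. Dimmer probes of Atp5j and Atp5a1 also lay above 0, at 0.12 and 0.04. Another Atp5j probe and the dimmer probes of Atp5k, Atp5mpl, Atp5o and Atp5pb lay below 0. The median over the complex was -0.12. Over all 75 genes, the median deviation from the mean of the line was 0.07, 0.02 and 0.03 on the monolayer and -0.01, -0.05 and -0.06 on the bilayer adipocyte arrays, so the groups did not overlap for the whole set. Taken alone, complexes I and V did not overlap between the groups either, while complexes II, III and IV did. Such array medians were not taken for all genes tested or for other sets, so this separation has no background beside it.

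**Figure D2:**
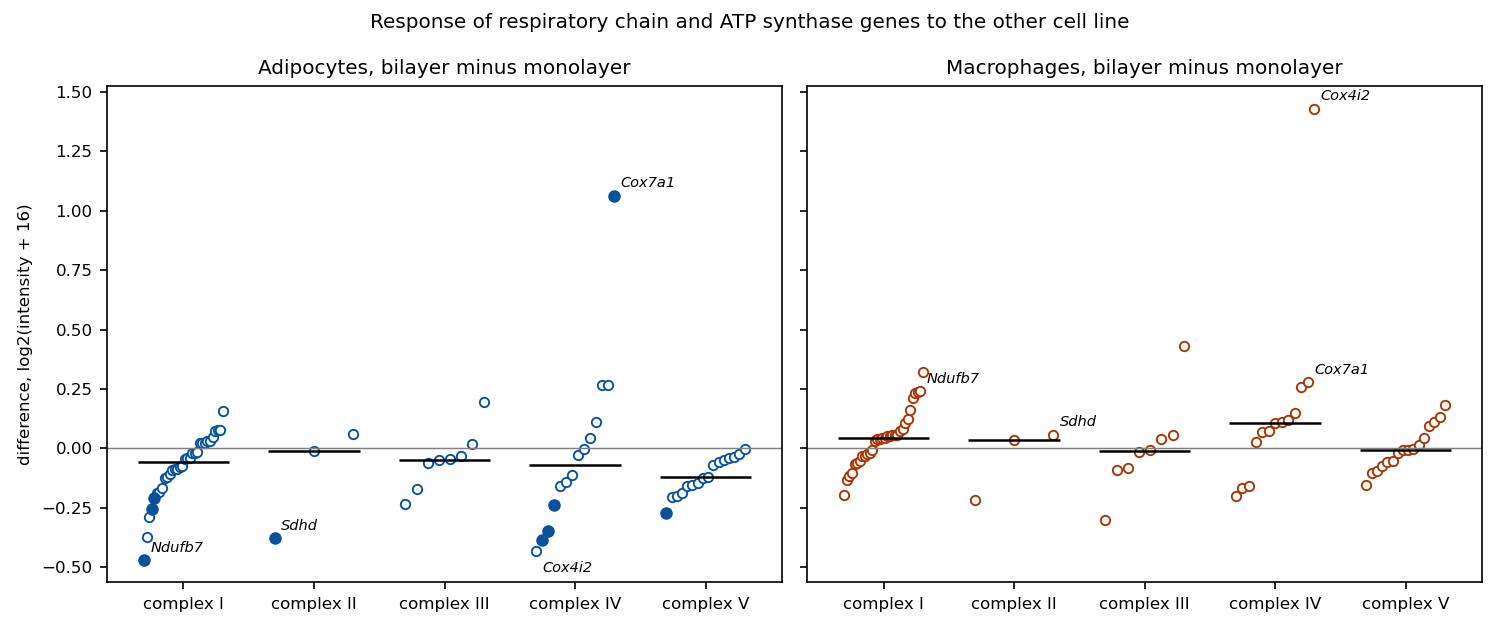
Difference between bilayer and monolayer for each measured gene, on the log2(intensity + 16) scale, by complex, in adipocytes (left) and macrophages (right). Filled points passed limma's adjusted p of 0.05, open points did not, and black lines are medians. Cox7a1 stands at 1.06 in adipocytes and Cox4i2 at a fitted 1.43 in macrophages. All 16 complex V genes, each by its brightest measured probe, lie below 0 in adipocytes, where 52.2% of all genes tested do.

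**Figure D3:**
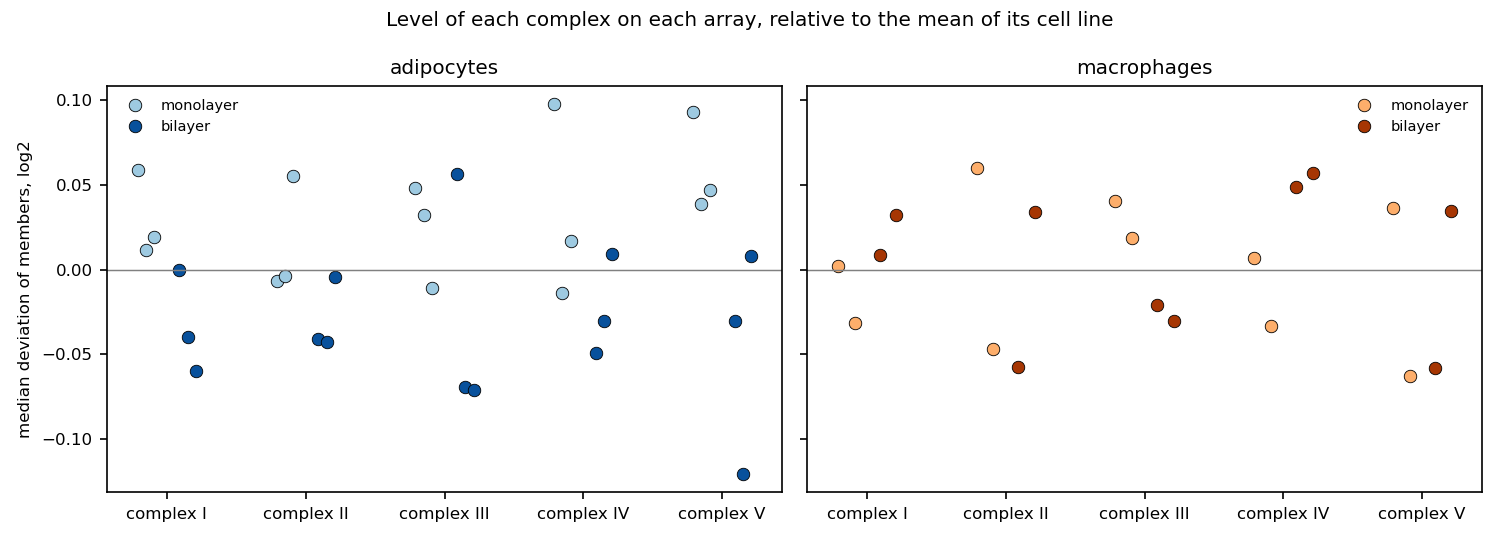
Median deviation of the measured genes of each complex from their mean over the arrays of the line, in log2 units, 1 point per array. In adipocytes the monolayer arrays lie above the bilayer ones without overlap in complexes I and V, and the groups overlap in complexes II, III and IV. In macrophages, with 2 arrays a group, the bilayer arrays lie above the monolayer ones in complexes I and IV and below them in complex III. The macrophage groups overlap in complexes II and V. Matching medians over all genes tested were not taken.

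Several of these calls depended on single arrays. Without monolayer replicate 1, or without bilayer replicate 2, the count of genes past the threshold in adipocytes was 4, namely Cox7a1, Ndufb7, Ndufc2 and Ndufa4, whose calls held whichever array was left out. Without an intensity trend in the fit Ndufc2 and Ndufa4 lost theirs (limma adjusted p = 0.0685 and 0.0992), and with no filter on dim probes Ndufa4 did (limma adjusted p = 0.0693). The other 5 each lost theirs (limma adjusted p = 0.0542 to 0.194) without at least 1 array. For Sdhd these arrays were monolayer 1 and bilayer 2, for Cox7b also monolayer 2, for Atp5h monolayer 1, monolayer 3 and bilayer 2, and for Cox7a2 monolayer 1 and 2 and bilayer 2 and 3. For Ndufa11 they were all adipocyte arrays but bilayer 1, and both bilayer macrophage arrays.

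In macrophages facing adipocytes, 0 of the 74 measured genes passed by limma, where 0.668% of 10326 genes did (0.494% higher, 0.174% lower). An unadjusted p under 0.05 was reached by 10 of the 74, against 10.9% of all genes tested. The median difference was 0.04, against 0.003 for all genes, and it was 0.0031 without macrophage monolayer 2 and -0.0037 without macrophage bilayer 2. The largest was in Cox4i2, with intensities of 4.24 and 9.44 on the monolayer and 48.3 and 42.1 on the bilayer macrophage arrays. It was thus not above noise in monolayer and was at least 2.27-fold higher in bilayer (fitted difference 1.43, which depends on the offset, SE 0.35, limma adjusted p = 0.101). It passed with only the macrophage arrays in the fit (adjusted p = 0.0292), or with 64 in place of 16 added to the intensities, where the difference was 0.63 (adjusted p = 0.0265). Ndufb7 had 547 and 484 in monolayer and 598 and 624 in bilayer macrophages, a difference of 0.24 (SE 0.10, limma adjusted p = 0.406), and Cox7a1 had 305 and 250 against 329 and 349, a difference of 0.28 (SE 0.15, limma adjusted p = 0.552).

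Tested against each other, the responses of the 2 lines differed for 3 of 75 genes, against 2.56% of 12324 genes tested (1.51% higher, 1.05% lower). Ndufb7 responded by 0.71 less in adipocytes than in macrophages (a difference of responses of -0.71, SE 0.13, limma adjusted p = 0.0111). Cox7a1 responded by 0.78 more in adipocytes (SE 0.19, limma adjusted p = 0.0487). For Cox4i2 the fitted value was -1.86 (limma adjusted p = 0.0428), but it was not above noise in bilayer adipocytes or monolayer macrophages, so this size is set by the offset and is no measured difference. With an offset of 1 it was -3.86 and did not pass (limma adjusted p = 0.338). The call for Cox7a1 was kept only without adipocyte monolayer 3 and that for Cox4i2 only without adipocyte monolayer 1 or adipocyte bilayer 3, of the 10 arrays left out in turn, and that for Ndufb7 was lost without any 1 of macrophage monolayer 2, macrophage bilayer 1 or macrophage bilayer 2 (limma adjusted p = 0.0566 to 0.073). The count was 0 without any of those 3 arrays and 1 without adipocyte monolayer 2, adipocyte bilayer 1, adipocyte bilayer 2 or macrophage monolayer 1. Of the 8 genes that fell in adipocytes, the 7 others gave differences of responses from -0.44 for Sdhd to -0.08 for Ndufa4, none past the threshold.

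Grown alone, adipocytes had higher levels than macrophages for most of the genes: 66 of 75 were higher, 3 lower and 6 did not pass, where 33% of all 12324 genes tested were higher and 32.8% lower. The median difference was 0.77, against -0.02 for all genes tested. Between the bilayer arrays, which share none with the monolayer arrays, 61 were higher, 4 lower and 10 did not pass (33.3% and 33% of all genes), with a median of 0.66. Higher in monolayer adipocytes were 31 of 32 measured genes of complex I, 2 of 3 of complex II, 6 of 8 of complex III, 12 of 14 of complex IV and 13 of 16 of complex V. The medians were close, at 0.77, 0.77, 0.69, 0.76 and 0.66 in that order. Intensities of up to 29664 were the highest on any array, and for 6 of the genes the mean in monolayer adipocytes was above 20000. Any compression of such bright probes was not tested. The 3 markers of dividing cells were all lower in monolayer adipocytes. Their sums were 1315 to 1551 there and 7194 to 7338 in monolayer macrophages, and the part of cell division in these differences was not tested.

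**Figure D4:**
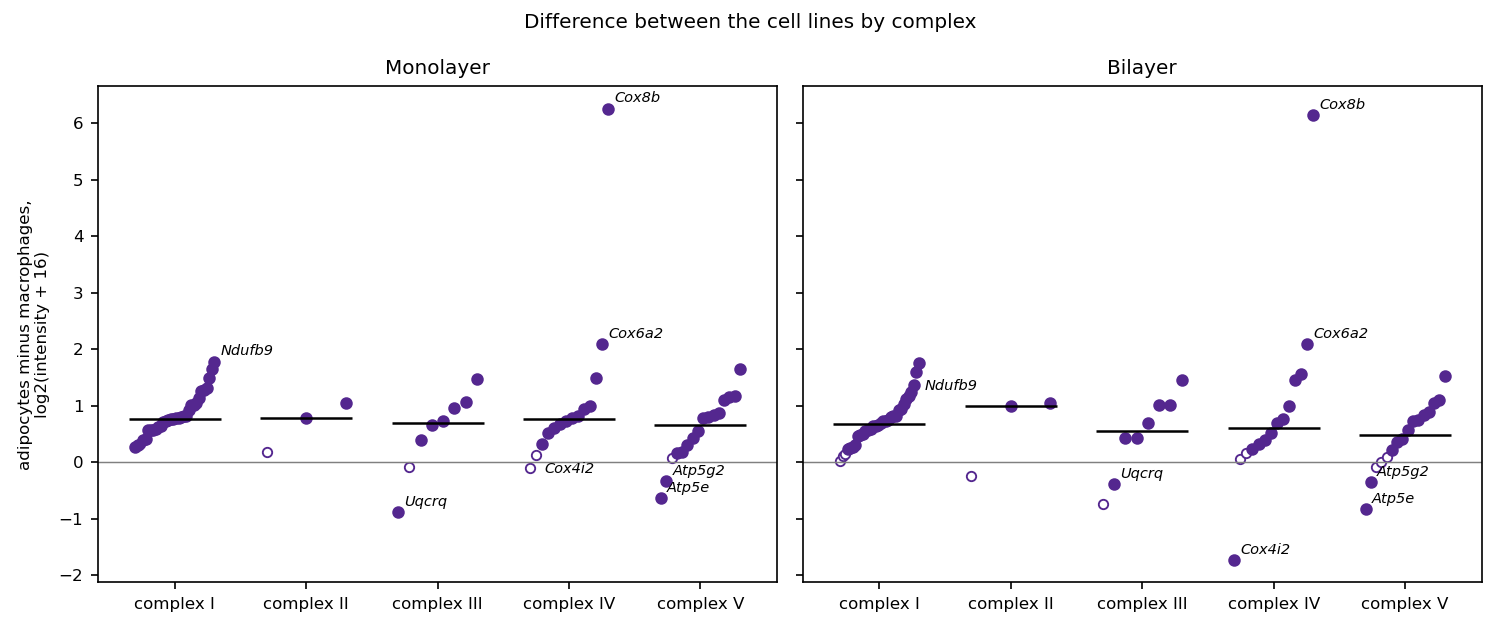
Difference between adipocytes and macrophages for each measured gene, on the log2(intensity + 16) scale, by complex, in monolayer (left) and bilayer (right). Filled points passed limma's adjusted p of 0.05, open points did not, and black lines are medians: Cox8b stands alone at 6.26 in monolayer, and Uqcrq, Atp5e and Atp5g2 lie below 0 in both panels.

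The widest gap was in Cox8b, the subunit 8 form known in mice from heart, skeletal muscle and brown fat. It had intensities of 1436, 1006 and 1224 in monolayer and 1564, 1295 and 1527 in bilayer adipocytes, and -4.21, -1.06, 5.94 and 3.81 on the macrophage arrays, none above noise. In monolayer it was at least 45.6-fold higher in adipocytes (limma adjusted p = 9.83e-15), and in bilayer at least 54.8-fold. Its widespread counterpart Cox8a was not analysed here. Cox6a2, the muscle form of subunit 6a, had 270, 265 and 312 in monolayer and 329, 331 and 367 in bilayer adipocytes, against 64.5, 44.9, 70.8 and 64.8 in macrophages. Every adipocyte array was several-fold above every macrophage array, with a difference of 2.09 in monolayer (SE 0.14, limma adjusted p = 2.51e-09). The widespread form Cox6a1 was also higher, at 1.49 (SE 0.06, limma adjusted p = 8.29e-12), as was Cox4i1, the widespread subunit 4, at 0.99 (SE 0.06, limma adjusted p = 4.79e-10).

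In complex I, taking the brightest probe of each gene, the widest difference between monolayer arrays was in Ndufb9, an accessory subunit, with intensities of 2698, 2480 and 2850 in adipocytes and 750 and 782 in macrophages. This was a difference of 1.78 (SE 0.08, limma adjusted p = 2.24e-11). Dimmer second probes of Ndufv3 and Ndufb8 differed by more, 2.81 and 2.29, where the brightest probes of these genes differed by 1.14 and 0.92. The core gene Ndufs3 followed at 1.65 (SE 0.07) and Ndufv1, which binds NADH, at 1.48 (SE 0.08). At the other end, Ndufs8, an iron-sulfur core subunit, was 0.26 higher (SE 0.07, limma adjusted p = 0.00287). In complex II, Sdhc was 1.04 higher (SE 0.07, limma adjusted p = 1.62e-09), whereas Sdhd had 749, 634 and 655 in adipocytes and 682 and 517 in macrophages and did not pass (0.19, limma adjusted p = 0.145). In complex III, Uqcr11, a small accessory subunit, was 1.47 higher (SE 0.07, limma adjusted p = 3.67e-11).

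The genes lower in adipocytes were few. Uqcrq, a small accessory subunit of complex III, had intensities of 216, 211 and 155 in monolayer adipocytes and 342 and 399 in monolayer macrophages. The groups did not overlap, and the difference was -0.89 in monolayer (SE 0.16, limma adjusted p = 0.000149) and -0.39 in bilayer (limma adjusted p = 0.042). The bilayer call was lost under 5 other settings of the fit (limma adjusted p = 0.0517 to 0.148) and without adipocyte bilayer 3, either monolayer macrophage array or macrophage bilayer 1, where the difference was -0.2477 (limma adjusted p = 0.321). A second Uqcrq probe exceeded noise on 1 of 10 arrays. In complex V, Atp5k, a subunit of the membrane part, was 1.66 higher (SE 0.14, limma adjusted p = 4.86e-08), while Atp5e, the epsilon subunit of the central stalk, was lower, with 338, 302 and 285 in monolayer adipocytes and 486 and 488 in monolayer macrophages. That difference was -0.64 (SE 0.13, limma adjusted p = 0.000359), and in bilayer it was -0.83. In complex IV, Cox5a, which has a single form, had 10346, 9443 and 9159 against 10147 and 10505 and did not pass (-0.10, limma adjusted p = 0.188). Between the bilayer arrays Cox4i2 was the fourth lower gene, at least 2.27-fold below macrophages (limma adjusted p = 0.000191).

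Isoform pairs were compared as the log2 ratio of their 2 probes on each array, second over first, over 6 adipocyte and 4 macrophage arrays, in 5 pairs with each form above noise on at least 2 arrays. For Atp5g2 and Atp5g3, which encode the same ring protein of complex V, Atp5g3 was 0.80 higher and Atp5g2 0.34 lower in monolayer adipocytes (limma adjusted p = 1.36e-07 and 0.00191). Their ratio ran from 3.21 to 3.56 on the adipocyte arrays and from 2.14 to 2.37 on the macrophage arrays, without overlap and 1.12 apart (exact two-sided permutation p = 0.00476, the smallest this design allows, adjusted p = 0.00793). The ratio of Cox6a2 over Cox6a1 was 0.62 higher in adipocytes, at -6.04 to -5.58 against -6.75 to -6.29 (exact permutation p = 0.00476, adjusted p = 0.00793). With an offset of 64 that difference was 0.12 and did not pass (adjusted exact permutation p = 0.233). The ratio of Cox4i2 over Cox4i1 is not read, since Cox4i2 was above noise on 2 of 6 adipocyte and 2 of 4 macrophage arrays and its ratio elsewhere is set by the offset. The ratio of Cox7a2l, which is known to join complexes III and IV into supercomplexes, over Cox7a2 was 0.36 lower, with overlapping arrays (exact permutation p = 0.0667, adjusted p = 0.0834). For Cox7a1 over Cox7a2 the lines differed by 0.57 (exact permutation p = 0.219), and by -0.03 over the monolayer arrays alone.

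**Figure D5:**
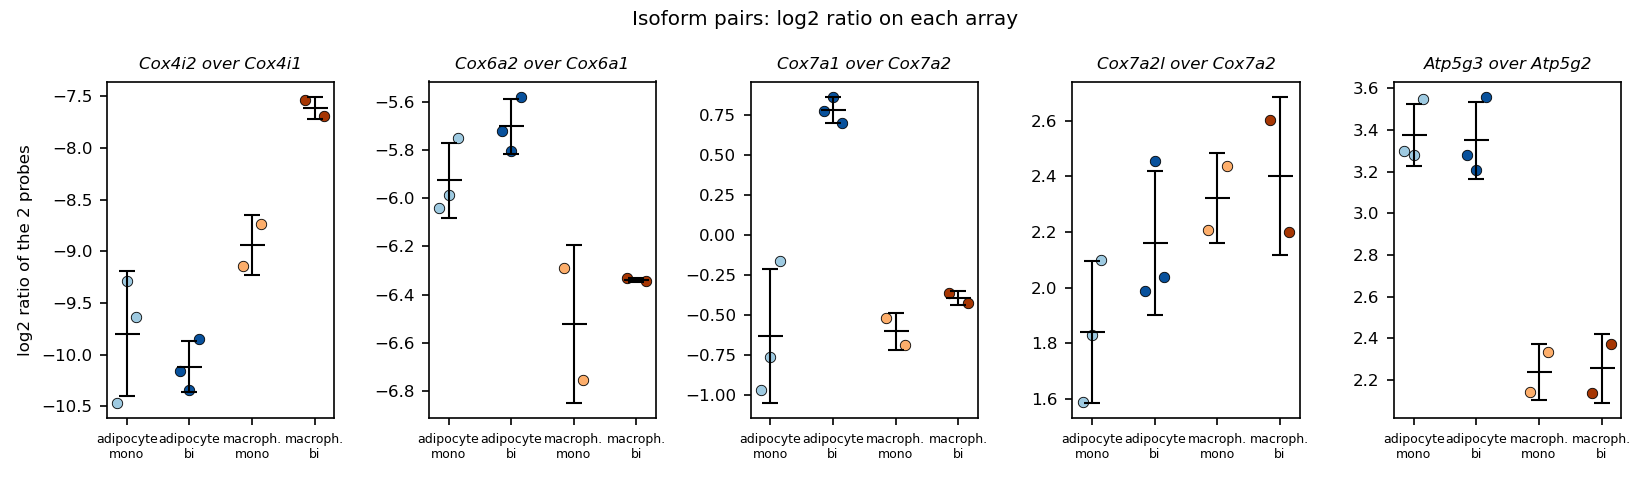
Log2 ratio of the 2 probes of each isoform pair on each array of the 4 groups, with group means and SDs as black bars; levels of different probes are not comparable, so only shifts between groups are read. Cox7a1 over Cox7a2 is higher on the 3 bilayer adipocyte arrays (0.70 to 0.86) than on every other array, and Atp5g3 over Atp5g2 separates the lines. Cox4i2 is at noise on 6 of the 10 arrays.

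Within adipocytes Cox7a2l over Cox7a2 differed by 0.32 between bilayer and monolayer, Cox6a2 over Cox6a1 by 0.22 and Atp5g3 over Atp5g2 by -0.03, with exact permutation p values of 0.3, 0.2 and 0.8. In macrophages, with 2 arrays against 2, no test was made. There Cox7a1 over Cox7a2 was 0.21 higher in bilayer, and Cox6a2, Cox7a2l and Atp5g3 over their partners were 0.18, 0.08 and 0.02 higher.

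Other genes of the same pathway were read from lists of the factors around the chain. Of 8 measured genes encoded by mitochondrial DNA itself, 1 fell in bilayer adipocytes, the complex I core gene ND1 (-0.22, SE 0.06, limma adjusted p = 0.0246), and ND5, another, did not pass at -0.38 (SE 0.13, limma adjusted p = 0.0752). In bilayer adipocytes 5.17% of all 11037 genes tested fell and 5.63% rose, with a median of -0.01. Of 40 measured assembly factors, 7 fell and 0 rose there, with a median of -0.16. They were Cox20, Cox19 and Coa6, which help mature the copper sites of complex IV, Sdhaf1 and Sdhaf4 for complex II, and Ndufaf3 and Ndufaf5 for complex I. Cox20 had intensities of 1087, 1162 and 1086 in monolayer and 871, 924 and 891 in bilayer adipocytes, a difference of -0.31 (SE 0.07, limma adjusted p = 0.0061), and Coa6 differed by -0.29 (SE 0.07, limma adjusted p = 0.00777). Of 12 regulators of mitochondrial biogenesis, 11 citric acid cycle enzymes and 10 import and outer membrane genes, 0, 0 and 0 passed limma's test in bilayer adipocytes. Before adjustment 0, 3 and 1 were under 0.05, against 24.7% of all genes tested. The smallest p values there belonged to the mitochondrial transcription factor genes Tfb2m (-0.15) and Tfb1m (-0.16), the citric acid cycle genes Idh3b (0.17) and Suclg1 (-0.16), the chaperonin gene Hspe1 (-0.22) and the outer membrane channel gene Vdac3 (0.12).

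Of 6 measured genes for proton leak and inhibition of ATP synthase, Slc25a5, an ADP/ATP carrier, rose in bilayer adipocytes from 19343, 21608 and 20651 to 23974, 26063 and 25415. This was a difference of 0.29 (SE 0.06, limma adjusted p = 0.00438), and the other 5 did not pass. Of 14 genes of the hypoxia response 12 rose there and 0 fell, with a median of 1.23, where 5.63% of all genes tested rose and 5.17% fell. Among the 12 were P4ha2, a collagen prolyl hydroxylase (1.43, SE 0.08, limma adjusted p = 2.23e-09), and Pdk1, the kinase that limits entry of pyruvate into the citric acid cycle (1.40, SE 0.08, limma adjusted p = 2.12e-09). In bilayer macrophages, 0.494% of all genes tested rose and 0.174% fell. There 2 of 10 hypoxia response genes rose, Ndrg1 (1.87, SE 0.23, limma adjusted p = 0.00173) and Pdk1 (0.59, SE 0.09, limma adjusted p = 0.00831), and 0 genes of the 6 mitochondrial lists passed.

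Between the lines in monolayer, 9 of 11 citric acid cycle enzymes, 23 of 40 assembly factors and 4 of 8 mitochondrially encoded genes were higher in adipocytes, and 0, 7 and 1 were lower. Of all 12324 genes tested between the lines there, 33% were higher and 32.8% lower. Of 12 biogenesis regulators 5 were higher and 5 lower. Ppargc1a, the coactivator PGC-1α, had intensities of 125, 143 and 145 in monolayer adipocytes and was not above noise in macrophages, at least 5.7-fold lower there (limma adjusted p = 2.4e-09). Nrf1, a transcription factor of respiratory chain genes, was lower in adipocytes, by -1.34 (SE 0.10, limma adjusted p = 1.3e-08). Atpif1, the inhibitor that binds ATP synthase, had 4742, 4825 and 4397 in monolayer adipocytes and 13941 and 13948 in macrophages. It thus ran opposite to most of the complex V genes, with a difference of -1.58 (SE 0.07, limma adjusted p = 4.31e-11).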

How the data were processed

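Messenger RNA of 10 samples was measured on Illumina bead arrays as biotinylated complementary RNA, per the labels. The deposited values were background-subtracted, normalized intensities of 45281 probes. The authors' normalization is not given in the sources used here. The submitters' processing notes name GenomeStudio 2011.1 without a role. A further 20 value columns could not be tied to samples and were not used, nor were slides or detection p-values.

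Groups followed the labels. Values below 0 were set to 0, and log2(intensity + 16) was fitted with limma 3.58.1 (lmFit, eBayes with an intensity trend, R 4.3.3) over all 10 arrays, with Benjamini-Hochberg adjustment over all genes tested, two-sided, called at 0.05. The noise bound was the 99th percentile of the sizes of values below 0, and "at least" folds use it. A gene was represented by its brightest measured probe; of 26 genes with several, 6 had probes of opposite sign in the adipocyte comparison and 0 had opposite calls in any. All 122 probes used matched RefSeq's gene table. The number of arrays limits the precision.

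Named genes were those past the threshold in a bilayer comparison or in the response difference, the 2 of smallest p per complex and per list in adipocytes, the widest difference between the lines in each direction per complex, and the isoforms; others, such as Cycs, Ndufa6, Ndufs6, Ndufs3, Ndufv1, Ppargc1a and Nrf1, were chosen after their values were seen. The genes, lists and rule were chosen with earlier results of these data known. The model was also run on simulated data with 200 changed genes, and the outcome is not given here. Alternatives were other offsets, no filter, every probe, no trend, quantile normalization, a replicate block, only the arrays compared, and leaving out each array.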

Additional observations from a re-analysis of the deposited data

Results flagged for a closer look

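The change from monolayer to bilayer differed between the lines for 3 of 75 genes, near the 2.56% of all genes tested, and for 0 with no filter, with no intensity trend or without macrophage monolayer 2, macrophage bilayer 1 or macrophage bilayer 2. Ndufb7 fell in adipocytes and was higher in bilayer macrophages without passing there, a difference of responses of -0.71 (SE 0.13, limma adjusted p = 0.0111). Cox7a1 rose in adipocytes and its response there was higher by 0.78 (SE 0.19, limma adjusted p = 0.0487), a call kept in 1 of the 10 fits that left out an array. Cox4i2 exceeded noise on both bilayer macrophage arrays and on none of the bilayer adipocyte arrays, with a fitted difference of responses of -1.86 (limma adjusted p = 0.0428) that is set by the offset and was -3.86 with an offset of 1 (limma adjusted p = 0.338). Each was found by the test of the difference itself.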

How the results depend on the processing

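Only 2 or 3 arrays a group, a noise bound in place of detection p-values, and probes of unknown linearity limit these results. Of 776 values for named genes with an array left out, 711 kept direction and side of the threshold, 48 lost and 7 gained a call, and 10 changed sign. Under the other alternatives 576 of 614 kept both, 33 lost and 4 gained a call and 1 changed sign. The cause of a change was not tested.

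In adipocytes the 9 genes past the threshold became 3 with no filter on dim probes, where 19057 genes were tested, 2 with no intensity trend, and 4 to 10 with an array left out. In macrophages the 0 became 1 with an offset of 64 and 1 with only the arrays of the comparison, and stayed 0 with an array left out. The 3 genes whose responses differed became 0 with no filter, 1 with every probe on its own, 0 with no trend and 0 to 2 with an array left out. Between the lines 67 to 70 (monolayer) and 59 to 66 (bilayer) genes passed with an array left out. Over all genes the adipocyte count of 1192 became 603 with no filter, 604 with no trend and 692 to 788 without adipocyte monolayer 1 or 2 or bilayer 2. That of macrophages, 69, became 155 with only its arrays and 9 to 37 without 1 of its arrays, and that of the response difference, 316, became 106 with no filter, 80 with no trend and 97 to 203 without each of 7 single arrays. With every probe on its own 12587 and 12647 probes differed between the lines in place of 8107 and 8171 genes. Fitting the response difference to only its own arrays is the same fit, since it uses every array.

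For the isoform pairs between the lines, Cox4i2 over Cox4i1, set by the offset where Cox4i2 is at noise, gave -1.68 with the offset of 16 and -3.03 (adjusted exact permutation p = 0.0555) with an offset of 1 and Cox6a2 over Cox6a1 gave 0.12 (adjusted exact permutation p = 0.233) with an offset of 64. Over the monolayer arrays alone Cox4i2, Cox6a2 and Atp5g3 over their partners gave -0.86, 0.60 and 1.14, and Cox7a1 over Cox7a2 changed sign to -0.0295. Over the bilayer arrays alone they gave -2.50, 0.64 and 1.09. Those splits cannot reach the threshold. With an array left out, the ranges between the lines were -1.97 to -1.58, 0.51 to 0.66, 1.08 to 1.16, 0.41 to 0.78 for Cox7a1 over Cox7a2, and -0.45 to -0.28 for Cox7a2l over Cox7a2. The last passed at -0.45 (adjusted exact permutation p = 0.00992) without adipocyte bilayer replicate 2. Within adipocytes Atp5g3 over Atp5g2 ranged from -0.13 to 0.0593 and changed sign to 0.0593, 0.0074 and 0.0432 without monolayer 3, bilayer 1 and bilayer 2.

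Signs also changed for differences that did not pass. With an array left out, the macrophage difference ran from -0.0283 to 0.0881 for Ndufc2, -0.0209 to 0.1336 for Ndufa11, -0.1369 to 0.2522 for Sdhd, -0.1523 to 0.0328 for Atp5h, -0.0976 to 0.1501 for Cox7b and -0.0037 to 0.1382 for Cox7a2. The difference of responses of Ndufa4 ran from -0.168 to 0.0041. Between monolayer arrays Cox4i2 ran from -0.0915 to 0.4542, with -0.0301 without macrophage monolayer replicate 1 and -0.22 with an offset of 1, and Sdhd ran from -0.0078 to 0.3813.

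The deviations of samples with the same replicate number correlated at r = 0.0493, 0.0135 and 0.06 in adipocytes. Adipocyte samples with different numbers gave -0.0581 to 0.00467, all below these small values. In macrophages, with 2 arrays a group, every pair gives 0.0236 or -0.0236, so r cannot show a pairing there. Whether a replicate number marks a shared culture was not tested. With the replicate number as a block the counts were 9, 0, 3, 68 and 64, against 9, 0, 3, 69 and 65, so a call was lost net in each comparison of the lines. Among the genes followed singly, Uqcrq lost its call between the bilayer arrays (-0.26, limma adjusted p = 0.087).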
